A study of Mus musculus with 6 samples.

Results

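Genes of Wnt signalling were read in RNA-seq libraries of primary articular chondrocytes, the resident cells of joint cartilage. The members were every symbol of the deposited table that names a numbered Wnt ligand (19 genes) or Frizzled receptor (10 genes), with 20 further genes listed by name: co-receptors, receptors outside the Frizzled family, beta-catenin and its scaffolds, TCF/LEF transcription factors, feedback inhibitors and R-spondins. All 49 were found among 24346 symbols. The cells came from cartilage of ICR mice of postnatal day 4, and both groups share that strain, age and tissue. The 3 control libraries were from cells without semaphorin 4D (Sema4D), and the 3 Sema4D libraries from cells stimulated with it. Sema4D is a membrane-bound or shed ligand of plexin-B receptors. Its dose, the duration of stimulation and the composition of the control medium are not given in the sources used here. Whether replicates were separate animals or cultures is not stated in the labels either, and the p-values therefore cover the spread of these 6 libraries alone, which may be technical.

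As background, Wnt ligands are lipid-modified secreted proteins that bind Frizzled receptors together with the co-receptors LRP5 and LRP6. Without a ligand, a destruction complex built on Axin and APC marks beta-catenin for degradation. With a ligand, beta-catenin accumulates and switches TCF/LEF factors on the DNA from repression to activation. The ubiquitin ligases ZNRF3 and RNF43 clear Frizzled receptors from the cell surface, and R-spondins, acting with LGR4, LGR5 and LGR6, remove those ligases. Other ligands, such as WNT5A acting on ROR2, signal without beta-catenin. In cartilage, Wnt signals help to place joints and to set the pace of chondrocyte maturation, and excess beta-catenin activity is known to erode the chondrocyte state.

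The unit was FPKM, fragments scaled to transcript length and library size, so levels can be compared between genes. Depth, estimated from the steps of low values, was 1.3e+07 to 1.79e+07 fragments per library, and 1 fragment on 1 kilobase was worth 0.0559 to 0.0769 FPKM. Cartilage markers were high in both groups, and Col2a1, the main cartilage collagen gene, was at 10011 to 10952 FPKM in control and 8396 to 9131 FPKM in Sema4D libraries. The summed FPKM of 11 chondrocyte markers was 15697 to 16863 in control and 12495 to 13494 in Sema4D libraries, and all 11 fell, a call that Col2a1 lost after quantile normalization (log2 change -0.07, limma adjusted p = 0.459) and the other 10 kept in every alternative. For 9 surface and synovial fibroblast markers the sums were 5026 to 5397 and 5065 to 5293, with 4 of 8 tested markers higher and 1 lower. Most of these sums was Col1a1 (3831 to 4130 and 3727 to 3906) and Col3a1 (1061 to 1137 and 1147 to 1204), neither past the threshold, so they say little of the other markers. Pdpn (log2 change 1.25), Pdgfra (0.86), Cd34 (0.52) and Htra4 (0.51) rose and Thy1 (-0.15) fell, and these calls held in every alternative that tested them. For comparison, 24.5% of all tested genes were higher and 22.2% lower. Sums for 8 osteoblast markers were 9.62 to 11.5 and 7.38 to 8.49 FPKM, for 7 skeletal muscle markers 9.64 to 10.9 and 5.91 to 7.96, and for 11 macrophage and osteoclast markers 83.5 to 91 and 95.8 to 102. Ctsk alone held 52.5 to 53.9 and 66.3 to 68.8 of the last, and the other 10 summed to 31 to 38.5 in control and 29.5 to 33 in Sema4D libraries. Of 6 tested genes in that list, Ctsk and Cd14 (log2 change 0.80, SE 0.093, limma adjusted p = 0.000172) rose. Lyz2 (log2 change -0.46, SE 0.11, limma adjusted p = 0.00769) and Tyrobp (log2 change -0.70, SE 0.19, limma adjusted p = 0.0153) fell. Under the filter, Adgre1 (means 0.203 in control and 0.673 FPKM in Sema4D libraries) and Fcer1g (0.234 and 1.15) were higher in every Sema4D library than in every control library. Groups overlapped for Csf1r, Ptprc and Itgam, so macrophage markers moved both ways. Cdh5, Kdr, Emcn and Tie1, defining endothelial markers, were under 0.1 FPKM in every library (6 endothelial markers summed to 0.0652 to 0.242 and 0.131 to 0.307). The part of these shifts in the results below was not tested, and in bulk libraries fewer cells of a type and less RNA per cell cannot be told apart.

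Genes were tested if their mean over the 6 libraries was at least 1 FPKM, which 29 members and 11603 genes passed. Changes are on the log2(FPKM + 1) scale, as Sema4D minus control, which understates the change of low genes, and a gene is called higher or lower at a limma adjusted p under 0.05 over all tested genes. With Sema4D, 14 tested members were lower and 5 higher (48.3% and 17.2% of the 29), where 22.2% of all tested genes were lower and 24.5% higher. Either way, 19 members passed, where 46.7% of all tested genes did, and the other 10 members did not. The median change of the 29 was -0.20, against 0.01 over all tested genes. By over 1.5-fold, 5 members fell (17.2% of the 29, against 3.71% of all tested genes) and 1 rose. After rescaling each library to the same FPKM sum, 16 members were lower and 4 higher, while 34.5% of all calls were higher in place of 52.4% (38.8% after quantile normalization, with the same member counts). The number of members called higher was 3 without control replicate 1 or 3 and without Sema4D replicate 1 or 3. Groups did not overlap for 22 of the 29, 15 lower and 7 higher, where 56.6% of all tested genes did not overlap (27% lower and 29.6% higher). The falls included 6 Frizzled genes, Lrp6, Ror1 and Ror2, and both tested R-spondins rose. Of the 19 called members, 14 kept their call under every alternative processing that tested them, and the 5 that did not were Wnt10b, Wnt5b, Wnt9a, Ror2 and Axin1.

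**Figure D1:**
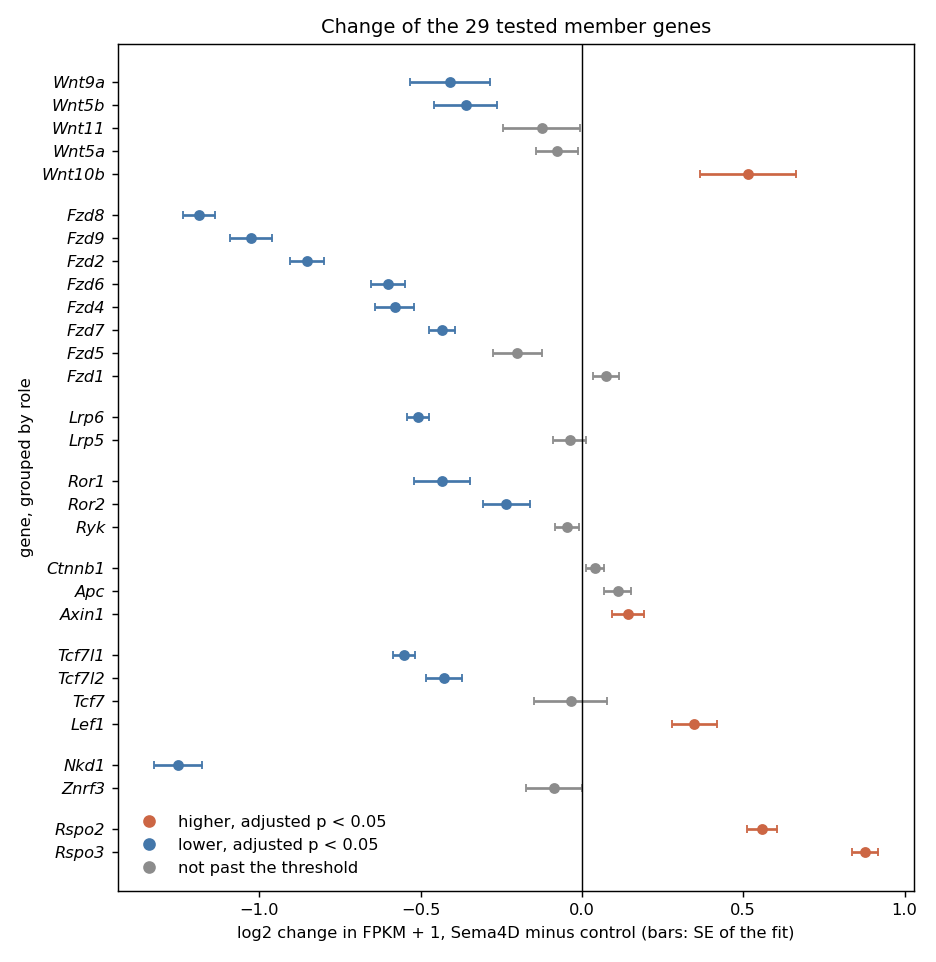
Change of each tested member on the log2(FPKM + 1) scale, Sema4D minus control, grouped by role, with bars for the standard error of the fit. Points of the Frizzled genes lie left of 0 except Fzd1, the R-spondins Rspo2 and Rspo3 lie right of it, and the largest fall is that of Nkd1 at -1.25.

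Promoter windows are shown for Frizzled genes, since 6 of the 8 tested fell while Fzd1 and Fzd5 did not pass the threshold. RefSeq (build GRCm38.p6, the assembly of mm10) gave a window for 34 of the 49 members, 44 windows in all. Shown are the 250 bases before the start of Fzd9, Fzd4 and Fzd7, which fell, and of Fzd1, which did not pass the threshold, then the 250 bases before an inner start of Nkd1, the member with the largest fall, and before the inner start of Wnt5b that carries a match. Both of these windows lie within the span of their gene. All read 5′ to 3′ on the gene's strand, and capitals mark a TCF/LEF match.
Fzd9 (chr5:135251048-135251297, minus strand): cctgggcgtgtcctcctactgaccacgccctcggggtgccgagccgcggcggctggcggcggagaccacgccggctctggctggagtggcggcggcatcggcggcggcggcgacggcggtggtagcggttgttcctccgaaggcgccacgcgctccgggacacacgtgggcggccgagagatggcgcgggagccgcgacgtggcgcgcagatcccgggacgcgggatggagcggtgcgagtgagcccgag
Fzd4 (chr7:89404116-89404365, plus strand): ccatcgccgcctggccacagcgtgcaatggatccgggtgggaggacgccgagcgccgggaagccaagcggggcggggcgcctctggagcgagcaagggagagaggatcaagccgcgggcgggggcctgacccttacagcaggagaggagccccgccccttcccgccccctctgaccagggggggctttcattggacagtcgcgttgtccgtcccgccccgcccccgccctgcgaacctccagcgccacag
Fzd7 (chr1:59481897-59482146, plus strand): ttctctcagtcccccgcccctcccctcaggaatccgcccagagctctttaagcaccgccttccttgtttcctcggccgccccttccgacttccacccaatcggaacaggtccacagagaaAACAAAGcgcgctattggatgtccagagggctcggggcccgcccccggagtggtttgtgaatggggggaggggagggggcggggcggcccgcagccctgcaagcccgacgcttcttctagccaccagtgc
Fzd1 (chr5:4758217-4758466, minus strand): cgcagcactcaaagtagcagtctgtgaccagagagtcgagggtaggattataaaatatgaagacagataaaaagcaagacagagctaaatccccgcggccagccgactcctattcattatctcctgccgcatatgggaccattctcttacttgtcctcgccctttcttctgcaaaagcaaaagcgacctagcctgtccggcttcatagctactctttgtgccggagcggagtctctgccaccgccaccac
Nkd1, inner start (chr8:88527383-88527632, plus strand): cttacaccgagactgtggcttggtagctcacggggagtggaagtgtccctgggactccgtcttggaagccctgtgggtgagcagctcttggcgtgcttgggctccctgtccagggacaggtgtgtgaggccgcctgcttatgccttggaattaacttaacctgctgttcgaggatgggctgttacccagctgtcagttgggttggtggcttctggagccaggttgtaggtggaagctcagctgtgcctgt
Wnt5b, inner start (chr6:119449387-119449636, minus strand): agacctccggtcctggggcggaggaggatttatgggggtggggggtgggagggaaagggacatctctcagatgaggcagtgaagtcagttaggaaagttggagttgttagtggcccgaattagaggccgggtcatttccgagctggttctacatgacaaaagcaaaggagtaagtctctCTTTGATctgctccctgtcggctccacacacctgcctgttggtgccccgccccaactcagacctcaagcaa

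The search used CTTTGAT and CTTTGTT for TCF/LEF, for NF-kappaB GGG and TTCC with 3 bases of any kind between them, and ACAATGG for SOX proteins, on both strands, and no member window held more than 1 of these patterns (CTTTGAT and CTTTGTT share their first bases). A TCF/LEF pattern was in 4 of the 44 windows (9.09%), near the 8.06% of all 32851 windows of that length. The matches began 130 bases before the start of Fzd7, 71 before the inner start of Wnt5b, 14 before an inner start of Tcf7l2 and 51 before the outer start of Wnt11. The NF-kappaB pattern was in 1 member window, that of Wnt2b (4.65% of all windows), and the SOX pattern in none (3.02% of all windows), which says only that these letters are not there. In base composition Fzd1 differed from the other 3 Frizzled windows shown: 51.2% of its bases were G or C, with 12 CpG dinucleotides, against 76.4% and 42 for Fzd9, 72.8% and 25 for Fzd4 and 65.2% and 17 for Fzd7. The Fzd5 window, whose gene did not pass the threshold either, had 76.4% and 32. Such matches and compositions describe the windows and show no binding.

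Wnt ligands were low, and few reached the filter. Of 19, 5 were tested, 4 (Wnt1, Wnt3a, Wnt8b and Wnt9b) were listed at 0 in all 6 libraries and 10 untested ones stayed at or under 1.06 FPKM. Per library, in the order of replicates 1 to 3 throughout, the 19 ligands summed to 14.2, 13.2 and 14.1 FPKM in control and 13.2, 12 and 13.7 FPKM in Sema4D libraries. These sums overlapped between the groups, so the total of ligand transcripts did not separate them. Wnt5a and Wnt5b, which act largely without beta-catenin and regulate the pace of chondrocyte maturation, were the most abundant.

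Wnt5a was at 4.15, 4.58 and 4.36 FPKM in control and 4.37, 3.76 and 4.11 FPKM in Sema4D libraries, and the groups overlapped (log2 change -0.08, SE 0.065, limma adjusted p = 0.353). Wnt5b (chromosome 6, 119432531 to 119544824) was at 4.89, 3.69 and 3.9 FPKM in control and 2.74, 2.97 and 3.31 FPKM in Sema4D libraries. Every Sema4D library was under every control library (log2 change -0.36, SE 0.097, limma adjusted p = 0.0157), though the call was lost without Sema4D replicate 1 (limma adjusted p = 0.0576, within 0.00668 to 0.0576 over the alternatives). Control replicate 1 was the highest, at 4.89 FPKM. The share of Wnt5a in the ligand sum was 31.6% ± 2.69 (SD, n = 3) in control and 31.5% ± 1.6 in Sema4D libraries, while that of Wnt5b went from 30% ± 3.89 to 23.2% ± 2.14.

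Wnt9a, a ligand known from the forming joint, was at 1.64, 0.975 and 1.45 FPKM in control and 0.911, 0.709 and 0.676 FPKM in Sema4D libraries (log2 change -0.41, SE 0.12, limma adjusted p = 0.0261). The groups did not overlap but came close, with the lowest control library at 0.975 and the highest Sema4D library at 0.911 FPKM. Its call was lost without control replicate 1 (limma adjusted p = 0.0825) or 3 (0.0758) and without Sema4D replicate 2 (0.0658) or 3 (0.0708), within 0.0054 to 0.0825 over the alternatives. Wnt10b, a beta-catenin-activating ligand that favours bone over fat cells, was at 1.14, 1.28 and 1.06 FPKM in control and 2.4, 1.39 and 2.61 FPKM in Sema4D libraries. It was the only tested ligand that rose (log2 change 0.51, SE 0.15, limma adjusted p = 0.0221), and Sema4D replicate 2 lay just above the controls. Its call was lost without control replicate 1 (limma adjusted p = 0.0621) or 3 (0.0688) and without Sema4D replicate 1 (0.0763) or 3 (0.0709), within 0.000589 to 0.0763 over the alternatives. Wnt11, a ligand of the polarity branch, was at 1.18, 1.27 and 1.25 FPKM in control and 0.712, 1.16 and 1.31 FPKM in Sema4D libraries, and the groups overlapped (log2 change -0.13, SE 0.12, limma adjusted p = 0.422), with a change near 0 without Sema4D replicate 1.

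Among ligands under the filter, given as values with no test, Wnt10a was at 0.0423, 0.131 and 0.374 FPKM in control and 0.952, 1.06 and 0.864 FPKM in Sema4D libraries. All Sema4D libraries were above all controls. Its neighbour Wnt6 lies 6696 bases away on chromosome 1 (Wnt6 at 74754342 to 74785322, Wnt10a at 74792019 to 74804176), and Wnt6 was at 0, 0.0308 and 0 FPKM in control and 0.269, 0.128 and 0.106 FPKM in Sema4D libraries. Both neighbours were thus higher in every Sema4D library than in every control library, Wnt6 at the level of a few fragments. Wnt10b has Wnt1 as its neighbour on chromosome 15 (98770712 to 98778206 and 98789857 to 98793830), and Wnt1 was listed at 0 throughout.

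Wnt4, a ligand of the early joint, was lower in every Sema4D library than in every control library, at 0.716, 0.68 and 0.593 FPKM in control and 0.154, 0.264 and 0.382 FPKM in Sema4D libraries. Wnt16, which marks the articular surface and is known to respond to injury, was at 0.305, 0.433 and 0.737 FPKM in control and 0.344, 0.369 and 0.226 FPKM in Sema4D libraries, with overlapping groups. The ligand genes Wnt2, Wnt2b, Wnt3, Wnt7a, Wnt7b and Wnt8a were under 0.2 FPKM in every library.

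**Figure D2:**
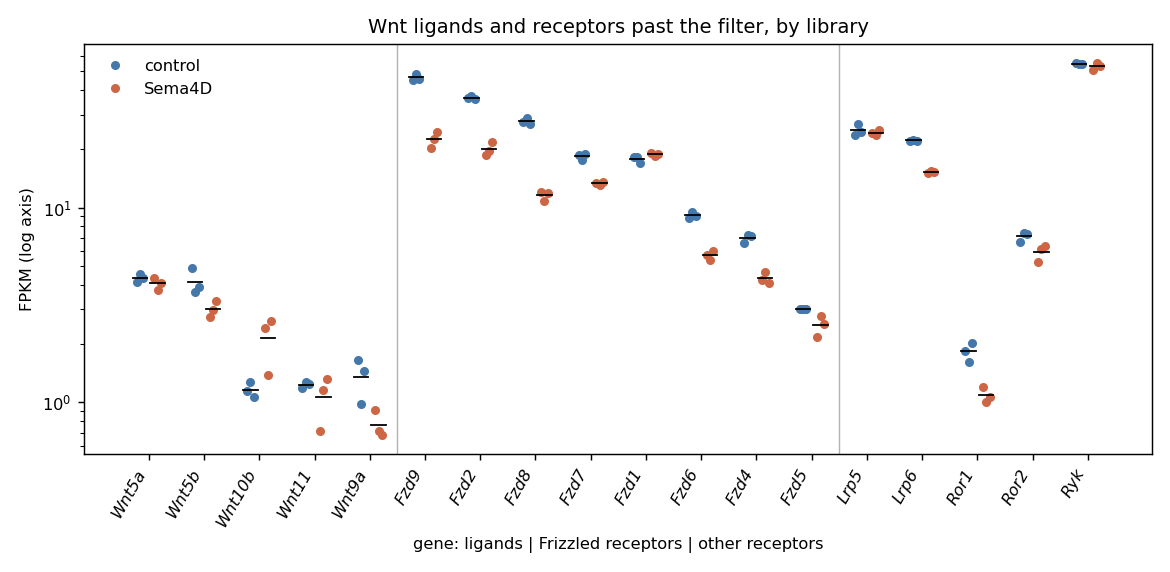
FPKM on a log axis of the tested ligands, Frizzled genes and other Wnt receptors, with 1 point per library (control and Sema4D, 3 each) and a line at each group mean. Ligands lie under 5 FPKM in every library, and the Sema4D points of Fzd9, Fzd2, Fzd8 and Lrp6 lie under all control points of the same gene.

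Of the 8 tested Frizzled receptor genes, 6 fell, 0 rose and 2 did not pass the threshold, with a median change of -0.59. Over all tested genes, 22.2% were lower and 24.5% higher, with a median change of 0.01. The 10 Frizzled genes summed to 165, 171 and 164 FPKM in control and 95.9, 97.6 and 104 FPKM in Sema4D libraries. No Sema4D library came near a control library: the sum went from 167 ± 3.75 to 99 ± 4.03 FPKM (mean ± SD, n = 3 per group). In control cells the order was Fzd9, Fzd2, Fzd8, Fzd7, Fzd1, Fzd6, Fzd4, Fzd5, Fzd3 and Fzd10, with overlapping libraries between Fzd7 and Fzd1 alone. In Sema4D cells it was Fzd9, Fzd2, Fzd1, Fzd7, Fzd8, Fzd6, Fzd4, Fzd5, Fzd3 and Fzd10, and there the libraries of Fzd9 overlapped those of Fzd2, and those of Fzd2 overlapped those of Fzd1.

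Fzd8 had the largest change of the family, at 27.4, 28.8 and 26.8 FPKM in control and 12, 10.8 and 11.9 FPKM in Sema4D libraries. The groups were far apart (log2 change -1.19, SE 0.05, limma adjusted p = 3.32e-07), and the control mean was 2.39 times the Sema4D mean. Fzd9 (chromosome 5, 135248938 to 135251047), a receptor known from bone formation, was at 45.2, 48.7 and 45.7 FPKM in control and 20.2, 22.5 and 24.5 FPKM in Sema4D libraries. It stayed the most abundant Frizzled gene by its mean in both groups although it fell (log2 change -1.03, SE 0.065, limma adjusted p = 4.4e-06). Fzd2 (chromosome 11, 102604431 to 102608058), a receptor for WNT5A among others, was at 36.3, 37.5 and 36.2 FPKM in control and 18.7, 19.4 and 21.6 FPKM in Sema4D libraries (log2 change -0.85, SE 0.053, limma adjusted p = 3.63e-06). In these 3 genes every control library stood above every Sema4D library.

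Smaller falls were those of Fzd6, Fzd4 and Fzd7. Fzd6, a receptor of the planar polarity branch, was at 8.88, 9.52 and 9 FPKM in control and 5.73, 5.35 and 5.97 FPKM in Sema4D libraries (log2 change -0.60, SE 0.053, limma adjusted p = 3.27e-05). Fzd4, which also serves the non-Wnt ligand norrin, was at 6.55, 7.25 and 7.17 FPKM in control and 4.23, 4.68 and 4.12 FPKM in Sema4D libraries (log2 change -0.58, SE 0.062, limma adjusted p = 0.000101). Fzd7 was at 18.7, 17.6 and 18.9 FPKM in control and 13.3, 13.1 and 13.5 FPKM in Sema4D libraries (log2 change -0.44, SE 0.041, limma adjusted p = 4.51e-05). None of the 3 had overlapping groups, and no alternative ended the call of any of the 6 falling Frizzled genes.

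Fzd1 and Fzd5 did not pass. Fzd1 was at 18.3, 18.1 and 16.9 FPKM in control and 19, 18.4 and 18.7 FPKM in Sema4D libraries (log2 change 0.07, SE 0.04, limma adjusted p = 0.171). All Sema4D libraries were slightly above all controls, and after rescaling to equal FPKM sums the change was -0.0044. Its share of the Frizzled sum went from 10.6% ± 0.392 in control to 18.9% ± 0.87 in Sema4D libraries, while that of Fzd8 went from 16.6% ± 0.247 to 11.7% ± 0.751 and that of Fzd9 from 27.9% ± 0.531 to 22.6% ± 1.34 (SDs over the 3 libraries of a group). Fzd5 was at 3.02, 3 and 3.01 FPKM in control and 2.18, 2.78 and 2.54 FPKM in Sema4D libraries (log2 change -0.20, SE 0.076, limma adjusted p = 0.0608), with groups that did not overlap, and it passed after rescaling (limma adjusted p = 0.0242), after quantile normalization (0.0356) and without Sema4D replicate 2 (0.0307), within 0.0242 to 0.171 over the alternatives. Under the filter, Fzd3 was at 0.866, 0.752 and 0.503 FPKM in control and 0.522, 0.574 and 0.597 FPKM in Sema4D libraries, with overlapping groups, and Fzd10 was under 0.1 FPKM in every library.

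**Figure D3:**
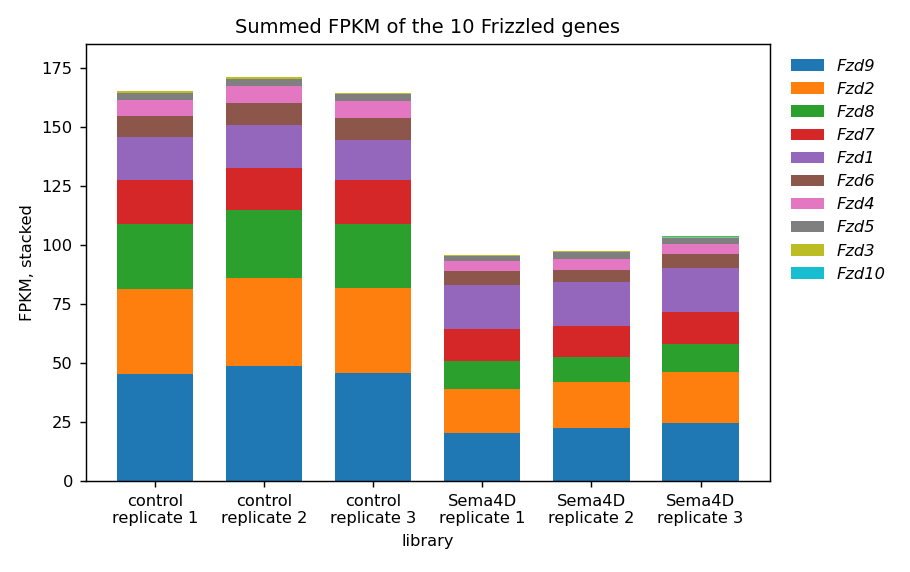
Stacked FPKM of the 10 Frizzled genes in each library, with the axis starting at 0. The stacks reach 164 to 171 in the 3 control and 95.9 to 104 in the 3 Sema4D libraries, and the Fzd1 layer is of like height in all 6 while those of Fzd9, Fzd2 and Fzd8 are lower in the Sema4D libraries.

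Of the LDL-receptor-related co-receptors for beta-catenin signalling, Lrp6 fell and Lrp5 did not pass the threshold. Lrp6 (chromosome 6, 134446476 to 134566913) was at 22, 22.3 and 21.9 FPKM in control and 15, 15.4 and 15.3 FPKM in Sema4D libraries. Replicates lay close together, and the groups did not overlap (log2 change -0.51, SE 0.033, limma adjusted p = 5.01e-06). Lrp5 (chromosome 19, 3584825 to 3686585) was at 23.6, 26.9 and 24.3 FPKM in control and 24.1, 23.6 and 25 FPKM in Sema4D libraries, with overlapping groups (log2 change -0.04, SE 0.051, limma adjusted p = 0.572). The ratio of Lrp6 to Lrp5 FPKM was 0.888 ± 0.0526 in control and 0.629 ± 0.0196 in Sema4D libraries, and the ranges of the groups did not overlap (0.83 to 0.932 and 0.612 to 0.65).

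Receptors outside the Frizzled family include ROR1 and ROR2, which take up WNT5A, and RYK. Ror1 was at 1.84, 1.61 and 2.02 FPKM in control and 1.2, 1 and 1.06 FPKM in Sema4D libraries (log2 change -0.43, SE 0.086, limma adjusted p = 0.0036). Ror2 was at 6.68, 7.42 and 7.28 FPKM in control and 5.25, 6.13 and 6.37 FPKM in Sema4D libraries (log2 change -0.23, SE 0.072, limma adjusted p = 0.028). Neither gene had overlapping groups, and Ror2 lost its call with no filter on low values (limma adjusted p = 0.0563) and without control replicate 2 (0.0907) or 3 (0.0852) or Sema4D replicate 1 (0.0773), within 0.00934 to 0.0907 over the alternatives. Ryk, the most abundant Wnt receptor gene here, was at 54.9, 54.8 and 54.7 FPKM in control and 50.8, 55.4 and 53 FPKM in Sema4D libraries (log2 change -0.05, SE 0.036, limma adjusted p = 0.332), and its groups overlapped. Ryk passed as lower after rescaling (limma adjusted p = 0.0291) and after quantile normalization (0.0385), within 0.0291 to 0.754 over the alternatives.

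Of beta-catenin and its 2 scaffold genes, 1 gene rose and 0 fell, where 24.5% of all tested genes were higher and 22.2% lower. Ctnnb1, which encodes beta-catenin, was the most abundant member, at 197, 196 and 203 FPKM in control and 199.8, 208 and 206 FPKM in Sema4D libraries. The groups overlapped (log2 change 0.04, SE 0.028, limma adjusted p = 0.269), and the sign turned after rescaling (-0.04) and after quantile normalization (-0.04). Apc was at 7.61, 7.6 and 7.82 FPKM in control and 8.57, 8.28 and 8.28 FPKM in Sema4D libraries (log2 change 0.11, SE 0.042, limma adjusted p = 0.0586). Axin1, the scaffold that limits the destruction complex, was at 16.1, 18.3 and 16.3 FPKM in control and 18.7, 18.8 and 18.7 FPKM in Sema4D libraries. Its call was the narrowest among the members (log2 change 0.14, SE 0.051, limma adjusted p = 0.0479) and was lost under 9 of 12 alternatives, among them the omission of any single library except control replicate 2, within a limma adjusted p of 0.00608 to 0.323. The libraries of neither scaffold overlapped between groups, and the ratios of the Sema4D to the control mean were 1.09 for Apc and 1.11 for Axin1.

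Of the 4 TCF/LEF genes, 2 fell and 1 rose, where 22.2% of all tested genes were lower and 24.5% higher. Tcf7l1, mostly a repressor of Wnt targets, was at 20.5, 21.4 and 20.8 FPKM in control and 13.9, 13.9 and 14 FPKM in Sema4D libraries. It remained the most abundant of the 4 although it fell (log2 change -0.55, SE 0.035, limma adjusted p = 4.46e-06). Tcf7l2 was at 6.74, 6.6 and 6.77 FPKM in control and 5.1, 4.43 and 4.66 FPKM in Sema4D libraries (log2 change -0.43, SE 0.057, limma adjusted p = 0.000373). Lef1 (chromosome 3, 131110297 to 131224357), mostly an activator and itself a target of beta-catenin in many tissues, was at 3.84, 4.1 and 4.07 FPKM in control and 5.38, 4.85 and 5.91 FPKM in Sema4D libraries, and all Sema4D libraries were above all controls (log2 change 0.35, SE 0.07, limma adjusted p = 0.00388). Tcf7 was at 1.09, 1.41 and 1.41 FPKM in control and 1.12, 1.06 and 1.59 FPKM in Sema4D libraries, with overlapping groups (log2 change -0.04, SE 0.11, limma adjusted p = 0.822). The ratio of Lef1 to Tcf7l1 FPKM was 0.191 ± 0.00424 in control libraries (SD, n = 3) and 0.386 ± 0.0361 with Sema4D (SD, n = 3), with no overlap. Lef1 made up 12.2% ± 0.203 of the summed TCF/LEF FPKM in control and 21.2% ± 1.28 in Sema4D libraries, and Tcf7l1 63.5% ± 0.51 and 55.1% ± 1.99.

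Of 5 feedback inhibitors, most of them induced by beta-catenin in many tissues, 2 were tested and 1 fell. Lower genes made up 22.2% of all tested genes. Nkd1 (chromosome 8, 88521342 to 88594887), which binds Dishevelled, was at 5.4, 5.7 and 5.41 FPKM in control and 1.7, 1.52 and 1.98 FPKM in Sema4D libraries. The control mean was 3.17 times the Sema4D mean, the largest fall of the tested members (log2 change -1.25, SE 0.074, limma adjusted p = 2.89e-06). Nkd2, its relative, was under the filter at 0.0736, 0.114 and 0.0395 FPKM in control and 0.24, 0.277 and 0.48 FPKM in Sema4D libraries, with every Sema4D library above every control library. Axin2, the most widely used readout of beta-catenin activity, lay just under the filter with a mean of 0.924 FPKM, at 1.06, 1.14 and 0.882 FPKM in control and 0.795, 0.809 and 0.86 FPKM in Sema4D libraries. Its groups did not overlap but were close, with 0.882 FPKM in the lowest control and 0.86 in the highest Sema4D library, and with no filter on low values it did not pass (-0.15, limma adjusted p = 0.112). Znrf3 was at 2.07, 2.1 and 1.86 FPKM in control and 1.92, 2.04 and 1.56 FPKM in Sema4D libraries, with overlapping groups (log2 change -0.09, SE 0.086, limma adjusted p = 0.441), and its partner Rnf43 was at or under 0.06 FPKM in every library.

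Both tested R-spondins, secreted proteins that strengthen Wnt signals, rose, where 24.5% of all tested genes were higher. Rspo3 (chromosome 10, 29453106 to 29535867) was at 8.26, 8.03 and 7.79 FPKM in control and 15.9, 15.5 and 15.4 FPKM in Sema4D libraries. Its rise was the largest of the tested members (log2 change 0.88, SE 0.04, limma adjusted p = 5.91e-07), and the Sema4D mean was 1.94 times the control mean. Rspo2 (chromosome 15, 43020788 to 43171594), which is needed for limb outgrowth, was at 16.2, 15.9 and 15.9 FPKM in control and 22.6, 24.4 and 25.4 FPKM in Sema4D libraries (log2 change 0.56, SE 0.046, limma adjusted p = 2.26e-05). In both genes every Sema4D library stood above every control library, and no alternative ended the call. Rspo1 was under the filter at 0.0367 to 0.202 FPKM, with overlapping groups.

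The receptors that R-spondins use were not members and came from a list of R-spondin receptors and co-receptor regulators with 13 genes in the table, of which 8 were tested. Lgr4 was at 25.2, 24 and 25.8 FPKM in control and 19.3, 20.3 and 18.4 FPKM in Sema4D libraries (log2 change -0.36, SE 0.046, limma adjusted p = 0.000326). Lgr5 was at 1.72, 1.84 and 1.7 FPKM in control and 0.9, 0.82 and 0.788 FPKM in Sema4D libraries (log2 change -0.59, SE 0.076, limma adjusted p = 0.000325), and Lgr6 at 1.43, 1.72 and 1.6 FPKM in control and 0.862, 0.645 and 0.577 FPKM in Sema4D libraries (log2 change -0.61, SE 0.096, limma adjusted p = 0.00102). All 3 fell with groups that did not overlap. The ratio of Rspo3 to Lgr4 FPKM was 0.321 ± 0.017 in control and 0.807 ± 0.0392 in Sema4D libraries. Kremen1, whose product helps DKK proteins to remove LRP6, rose (log2 change 0.16, SE 0.038, limma adjusted p = 0.009), a call lost after rescaling (limma adjusted p = 0.123) and after quantile normalization (0.0648). The other 4 tested genes of the list did not pass, Tspan12, a partner of Fzd4, among them (log2 change 0.17, SE 0.066, limma adjusted p = 0.0648), though it passed as higher without control replicate 3 (limma adjusted p = 0.0397) or Sema4D replicate 1 (0.0466). The median of the list was -0.02, against 0.01 over all tested genes. Of its 8 tested genes, 50% were called, near the 46.7% of all tested genes.

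**Figure D4:**
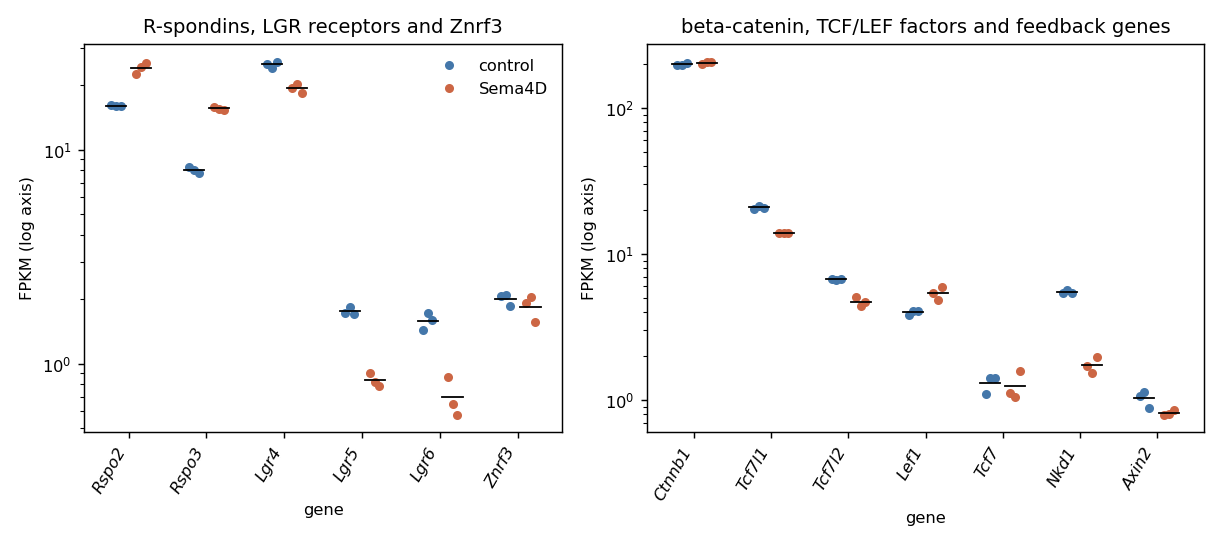
FPKM on log axes with 1 point per library (control and Sema4D, 3 each) and a line at each group mean, for R-spondins, LGR receptors and Znrf3 on the left and for beta-catenin, the TCF/LEF genes, Nkd1 and Axin2 on the right. Rspo2 and Rspo3 are higher and Lgr4, Lgr5 and Lgr6 lower in every Sema4D library than in every control library, and Lef1 and Tcf7l1 move in opposite directions.

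Other steps of the pathway were counted from further lists, chosen like the members with earlier results of these data known. Of 8 tested genes for ligand lipidation, secretion and release, 5 fell and 2 rose (median -0.18). Among all tested genes, 22.2% were lower and 24.5% higher. Wls, the carrier that brings Wnt proteins to the cell surface, was at 136, 128 and 129 FPKM in control and 115, 113 and 116 FPKM in Sema4D libraries (log2 change -0.19, SE 0.032, limma adjusted p = 0.00153), and Porcn, the enzyme that attaches the lipid, did not pass (log2 change 0.13, SE 0.096, limma adjusted p = 0.286). The heparan sulphate-editing gene Sulf2 fell (log2 change -0.37, SE 0.033, limma adjusted p = 3.52e-05) and its relative Sulf1 rose (log2 change 0.14, SE 0.038, limma adjusted p = 0.019), a call lost after rescaling (limma adjusted p = 0.292), after quantile normalization (0.136) and without control replicate 2 (0.059) or Sema4D replicate 2 (0.0522). The cell surface proteoglycan genes Gpc6 (log2 change -0.29, SE 0.03, limma adjusted p = 8.68e-05) and Gpc3 (log2 change -0.26, SE 0.041, limma adjusted p = 0.00105) fell, and Gpc4 rose (log2 change 0.17, SE 0.03, limma adjusted p = 0.002).

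Of 19 tested genes of Dishevelled, the destruction complex and beta-catenin turnover, 5 rose and 4 fell (median -0.04), so 47.4% were called, near the 46.7% of all tested genes. The rise of Csnk1d was lost under 8 of 12 alternatives, among them the omission of any single library except control replicate 2 (limma adjusted p of 0.0318 to 0.647 over the alternatives). The rises included the kinase genes Gsk3b (log2 change 0.25, SE 0.037, limma adjusted p = 0.000674) and Csnk1e (log2 change 0.28, SE 0.058, limma adjusted p = 0.00464). Amer1 (log2 change 0.27, SE 0.066, limma adjusted p = 0.00959) and Dvl1 (log2 change 0.33, SE 0.04, limma adjusted p = 0.000225) rose too. Csnk1a1 (log2 change 0.09, limma adjusted p = 0.0619), Gsk3a (0.07, 0.0902) and Btrc (-0.07, 0.269) were among the 10 genes that did not pass. Apc2, a relative of the scaffold gene Apc, was among the falls (log2 change -0.37, SE 0.086, limma adjusted p = 0.00841), so genes of the complex moved both ways. The falls also included proteins that bind Dishevelled. Dact1 was at 5.26, 5.35 and 5.18 FPKM in control and 2.3, 2.54 and 2.2 FPKM in Sema4D libraries (log2 change -0.90, SE 0.061, limma adjusted p = 6.04e-06), Dact3 at 7.4, 7.08 and 7.3 FPKM in control and 3.77, 3.89 and 4.79 FPKM in Sema4D libraries (log2 change -0.69, SE 0.077, limma adjusted p = 0.000141), and Cxxc5 at 24.7, 23.9 and 25.6 FPKM in control and 15.4, 16.5 and 18.4 FPKM in Sema4D libraries (log2 change -0.54, SE 0.062, limma adjusted p = 0.000157). The groups of these 3 did not overlap.

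Of 17 tested nuclear cofactors of beta-catenin, 7 fell and 4 rose (median -0.04), where 22.2% of all tested genes were lower and 24.5% higher. Of these calls, 6 falls and 2 rises held in every alternative. The rises of Tle6 (limma adjusted p of 0.00795 to 0.133) and Ctbp2 (0.0303 to 0.368) were lost under 9 alternatives each, among them the omission of any single library except Sema4D replicate 1 for Tle6 and control replicate 2 for Ctbp2. The fall of Tle1 (0.00773 to 0.132) was lost under 6, among them the omission of any library except Sema4D replicate 3. Genes of the Groucho family were among the falls. Aes was at 109.6, 113 and 114 FPKM in control and 86, 79.3 and 87.3 FPKM in Sema4D libraries (log2 change -0.41, SE 0.04, limma adjusted p = 6.3e-05). Tle2 was at 8.16, 9.37 and 10 FPKM in control and 6.08, 6.28 and 5.85 FPKM in Sema4D libraries (log2 change -0.52, SE 0.071, limma adjusted p = 0.000428). Pygo1, which helps beta-catenin to activate genes, fell too (log2 change -0.53, SE 0.086, limma adjusted p = 0.00123), and Hbp1, a repressor, rose (log2 change 0.22, SE 0.036, limma adjusted p = 0.00118), as did the co-repressor gene Ctbp1 (log2 change 0.21, SE 0.029, limma adjusted p = 0.000505). The co-repressor genes Tle2 and Ctbp1 thus stood on opposite sides of 0.

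A textbook list of beta-catenin targets had 18 tested genes, 4 of them members, of which 10 fell and 4 rose (median -0.11). Of these, 8 falls and all 4 rises held in every alternative. Lower and higher genes made up 22.2% and 24.5% of all tested genes. The fall of Ccnd2 (limma adjusted p of 0.00321 to 0.15) was lost under 9 of 12, among them the omission of any single library except control replicate 1, and that of Twist1 (0.00466 to 0.117) under 5, among them the omission of control replicate 2 or 3 or of Sema4D replicate 1 or 2. Without the members, 9 of 14 fell and 3 rose (median -0.17). Id2 was at 29.9, 28.4 and 30.6 FPKM in control and 10.5, 11.8 and 11.2 FPKM in Sema4D libraries, the largest fall of the list (log2 change -1.33, SE 0.05, limma adjusted p = 1.77e-07), and this gene is also a known target of BMP signalling. The cyclin gene Ccnd1 was at 46.8, 45.8 and 47.7 FPKM in control and 28.4, 31 and 29.1 FPKM in Sema4D libraries (log2 change -0.65, SE 0.04, limma adjusted p = 3.47e-06). The matricellular genes Wisp1 (log2 change -0.73, SE 0.045, limma adjusted p = 3.54e-06) and Nov (log2 change -0.71, SE 0.03, limma adjusted p = 3.35e-07) fell. Their relative Wisp2, with means of 133 in control and 134 FPKM in Sema4D libraries, did not pass (log2 change 0.02, SE 0.038, limma adjusted p = 0.751). Jag1, a Notch ligand gene, was at 2.56, 2.87 and 2.75 FPKM in control and 7.3, 7.11 and 6.22 FPKM in Sema4D libraries, the largest rise (log2 change 1.08, SE 0.069, limma adjusted p = 4.65e-06), and Myc rose (log2 change 0.38, SE 0.046, limma adjusted p = 0.000204). Both are also known to answer to other pathways. Sp5, another target, was listed at 0 in every library, and Notum was under the filter at 0.777, 0.727 and 0.494 FPKM in control and 0.369, 0.198 and 0.436 FPKM in Sema4D libraries. Also under the filter, Ascl2 was at 0.0528, 0.0817 and 0.085 FPKM in control and 0.833, 0.936 and 1.17 FPKM in Sema4D libraries. Tnfrsf19 had means of 0.204 in control and 0.355 FPKM in Sema4D libraries. Both were higher in every Sema4D library than in every control library. Secreted Wnt antagonists, which act outside the cell on ligands or co-receptors, had 5 tested genes, and all 5 fell (Frzb, Sfrp1, Sfrp2, Wif1 and Dkk3, median -1.15), where 22.2% of all tested genes were lower. Sostdc1, a secreted antagonist counted among the co-receptor regulators and under the filter, went the other way. It was at 0.432, 0.334 and 0.387 FPKM in control and 1.41, 1.82 and 1.24 FPKM in Sema4D libraries, with no overlap. The call of Sfrp1 (log2 change -0.29, SE 0.099, limma adjusted p = 0.0426) was lost under 6 of 11 alternatives, among them the omission of control replicate 1 or 2 or of Sema4D replicate 1 or 3 (limma adjusted p of 0.0231 to 0.118 over the alternatives).

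**Figure D5:**
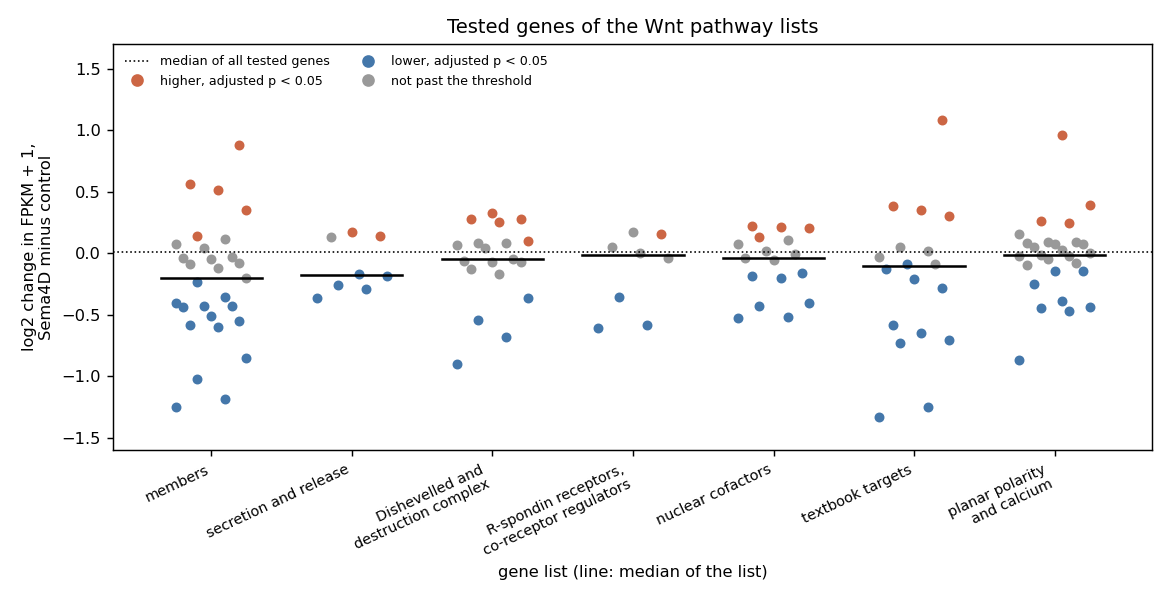
Change on the log2(FPKM + 1) scale, Sema4D minus control, of each tested gene in the members and in 6 pathway lists, with a line at each list's median and a dotted line at the median of all tested genes (0.01). The members have the lowest of the medians drawn, at -0.20, and all 7 sets drawn hold genes on both sides of 0. Secreted Wnt antagonists are not drawn, and their 5 tested genes all fell, with a median of -1.15.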

How the data were processed

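RNA-seq libraries of 3 control and 3 Sema4D-stimulated chondrocyte samples were used. The authors deposited 1 table of FPKM values per gene. TopHat2 2.0.13, Bowtie2 2.2.3, SAMtools 0.1.19, Cufflinks 2.2.1 and the mm10 genome are named in the submitters' processing notes. As FPKM values are no counts, count models were not used. Depth was estimated from the spacing of low values, of which 81.1% to 85% came within 0.15 of whole fragments, too few to recover counts.

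Log2(FPKM + 1) values of 11603 genes, those whose mean reached 1 FPKM, were fitted with limma 3.58.1 (R 4.3.3; trended empirical Bayes) without a replicate term, and p-values were adjusted by Benjamini-Hochberg over all of them. The procedure was also run on simulated data with independent values and few changed genes, a setting unlike these data, and no conclusion is drawn from that run. An exact permutation test of 3 against 3 cannot go below a p of 0.10. The members and lists were chosen with earlier results of these data known. Every member could be named. In the other lists the rule named the 3 genes with the smallest p and the largest rise and fall, while Wls, Porcn, Sulf1, Notum, Gsk3b, Csnk1e, Amer1, Kremen1, Ccnd1, Myc, Wisp1, Sp5, Wif1, Csnk1d, Tle1, Tle6, Ctbp2, Ccnd2, Twist1, Vangl2, Prickle1 and Camk2d were named after their values were seen. So were Adgre1, Fcer1g, Csf1r, Ptprc, Itgam, Htra4, Col1a1, Col3a1, Apc2, Csnk1a1, Gsk3a, Btrc, Ascl2, Tnfrsf19, Wisp2, Sostdc1, Vangl1, Prickle2, Prickle3, Scrib, Celsr2 and Celsr3. Gene positions and promoter windows came from RefSeq (GRCm38.p6), in which all 49 members were found. Alternatives were a pseudocount of 0.1, no filter, a minimum mean of 5 FPKM, rescaling each library to the same sum, quantile normalization, a replicate term and leaving out each library.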

Additional observations from a re-analysis of the deposited data

How the results depend on the processing

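Of the 19 called members, 14 kept their call in every alternative that tested them. With a minimum mean of 5 FPKM, 18 members were tested and 3 were higher, as fewer genes were tested. Leaving out each library in turn gave 3 to 5 members higher and 12 to 14 lower. Signs turned for members that did not pass the threshold: Fzd1 was at -0.0044 after rescaling to equal sums, Ctnnb1 at -0.0419 after rescaling and at -0.0381 after quantile normalization, and, leaving out each library in turn, Lrp5 ranged from -0.0745 to 0.0148 (highest without control replicate 2), Wnt11 from -0.213 to 0.0034 (highest without Sema4D replicate 1) and Tcf7 from -0.138 to 0.0275 (above 0 without Sema4D replicate 1, at 0.005, or 2). The cause was not tested. The median change of all tested genes was -0.07 after rescaling and -0.05 after quantile normalization, against 0.01. With the replicate number as a block, 4 members were higher and 14 lower, and over all genes 2638 were higher and 2356 lower, against 2841 and 2581. Deviations from the group means correlated at 0.14, -0.08 and -0.05 between same-numbered libraries over 11603 genes, and not every library correlated best with its own number. Control replicate 2 with Sema4D replicate 3 was at 0.136 and control replicate 3 with Sema4D replicate 2 at 0.103, and the remaining pairs were below 0. With 3 libraries per group these values cannot show whether samples were paired. The block ended the call of Axin1 (limma adjusted p = 0.0592) and of no other member. Depth limits the members under the filter, where values correspond to few fragments.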

Other observations

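Of 27 tested genes of the planar polarity and calcium branches, which carry Wnt signals without beta-catenin, 8 fell and 4 rose (median -0.02, against 0.01 over all tested genes). The 44.4% called are near the 46.7% of all tested genes. The formin genes Daam1 and Daam2, whose products link Dishevelled to the actin skeleton, moved in opposite directions. Daam1 was at 4.5, 5.17 and 4.92 FPKM in control and 10.6, 11.3 and 9.4 FPKM in Sema4D libraries (log2 change 0.96, SE 0.073, limma adjusted p = 1.3e-05). Daam2 was at 14.2, 14.6 and 14 FPKM in control and 7.49, 6.71 and 7.84 FPKM in Sema4D libraries (log2 change -0.87, SE 0.056, limma adjusted p = 4.86e-06). The groups of both genes were apart, and control cells held more Daam2 than Daam1 while the order was the other way in Sema4D cells in every library. Among polarity genes, Vangl2 (log2 change -0.45, SE 0.091, limma adjusted p = 0.00417) and Prickle1 (log2 change -0.47, SE 0.056, limma adjusted p = 0.000215) fell, while Vangl1, Prickle2, Prickle3 and Scrib did not pass the threshold. Under the filter and with no overlap, Celsr3 was higher (means 0.0279 in control and 0.286 FPKM in Sema4D libraries) and Celsr2 lower (0.687 and 0.383). Nfatc4, a calcium-controlled transcription factor gene, fell (log2 change -0.44, SE 0.048, limma adjusted p = 0.00012). Camk2d, a calcium-dependent kinase gene, rose (log2 change 0.39, SE 0.049, limma adjusted p = 0.000256).

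Among ligands and feedback genes under the filter, tested only with no filter on low values, Wnt10a (0.74, limma adjusted p = 0.00176), Wnt6 (0.21, 0.0262) and Nkd2 (0.30, 0.0157) passed as higher, and Wnt4 (-0.40, 0.0055) as lower. Each of these 4 genes had groups that did not overlap, as had 7 of the 20 members under the filter. The rest of the 20 did not pass or, at 0 in every library, were not fitted. In the same fit, 3006 of 17461 genes were higher and 2786 lower.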
